A study of Danio rerio with 15 samples.

Results

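A group of 181 transcript features of the zebrafish Müller glia was lower soon after a light lesion of the retina, at 8 hours, and was still lower at 16, 24 and 36 hours post-lesion (hpl). The members were selected on their measured values. A feature was taken where its mean was at least 5 on the log2 scale in unlesioned fish and the mean at each of the 4 lesioned times lay at least 1 below it, which is at least a 2-fold lower level. Genes of the solute carrier family and 17 further symbols were left out of the group by name, among them the glial calcium-binding protein s100b, and these account for 14 features that met the values. The 181 members were found among the 3164 features of the authors' deposited table of comparisons, and the same 181 among all 15502 features on the arrays. They carry 127 different symbols. Of the members 132 have 1 symbol, 4 have several and 45 have none, and 41 of the 132 carry only a clone or locus name, so that 91 features of 88 genes can be described by a gene's role.

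Müller glia are the radial glial cells that span the retina, hold its neurons in place, recycle transmitter and visual pigment, and store glycogen as a fuel reserve. In zebrafish they are also the source of new neurons: after the death of photoreceptors they leave the resting state, re-enter the cell cycle and give rise to progenitors. Genes of the resting glial cell, such as Notch target genes and metabolic enzymes, are known to be turned down as glia enter such a state.

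The cells came from 5- to 6-month old fish of the line Tg(gfap:GFP)mi2002, in which the promoter of the glial filament gene gfap drives green fluorescent protein. All 5 groups carry this transgene. The unlesioned group (0 hpl) received no light treatment, and the other groups were taken 8, 16, 24 and 36 hours after the lesion. Each group held 3 biological replicates with 1 Affymetrix array each, made from 20 ng of total RNA of sorted green fluorescent cells, and the labels do not say how many fish or retinas went into a replicate. Because the RNA came from a sorted pool, fewer cells of a type and less RNA per cell cannot be told apart in any value below. The sorting label rests on 1 promoter, so Müller glia markers were read first. Of 26 listed markers 10 are named here. The brightest in unlesioned cells were the gap junction gene gja1b at 12.63, the glutamine synthetase glula at 11.75 and the retinaldehyde-binding protein rlbp1a at 11.33. The dimmest were s100b at 6.57 and glulb at 6.76, against a median of 4.63 for all features of those arrays. Markers of other cells were bright there too, such as rho of rods at 9.79 and the neuronal gene slc6a1b at 9.30. These levels thus do not measure the purity of the sort. The gene gfap itself is not among the features named here.

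Every value of a member against 0 hpl describes how the group was chosen and has no test. The median change of the members was -1.38 at 8 hpl, -1.57 at 16 hpl, -1.77 at 24 hpl and -1.61 at 36 hpl, beside -0.10, -0.14, -0.11 and -0.14 over all features. On single arrays the median change of the members from the unlesioned mean ran from -1.33 to -1.57 at 8 hpl, from -1.48 to -1.73 at 16 hpl, from -1.76 to -1.81 at 24 hpl and from -1.53 to -1.83 at 36 hpl. The 3 unlesioned arrays lay between -0.11 and 0.07 on the same measure. Across the whole array limma called 14.5%, 21.9%, 14.2% and 26.6% of features lower than at 0 hpl at the 4 times and 12%, 18.4%, 16.3% and 19.9% higher (adjusted p under 0.05). Nothing is read from these shares for the members, whose selection used the same contrasts. All 4 contrasts share the same 3 unlesioned arrays.

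**Figure D1:**
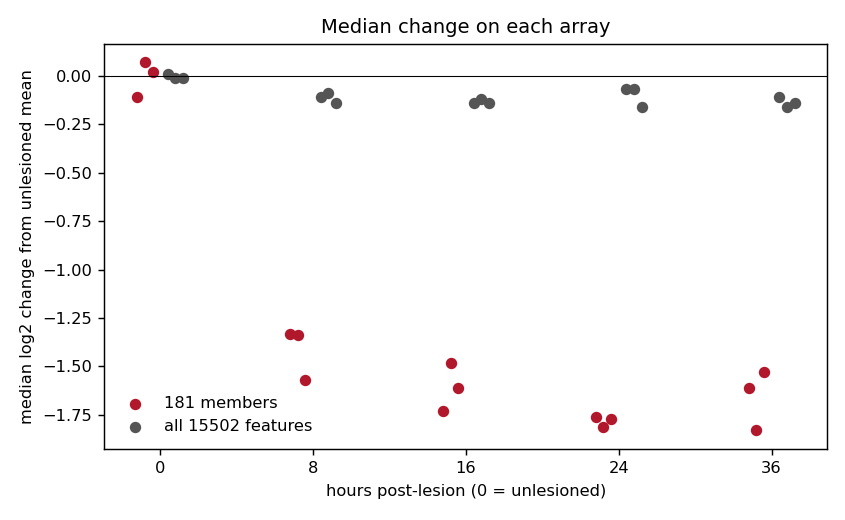
Median log2 change from the unlesioned mean on each of the 15 arrays, for the 181 members (red) and for all 15502 features (grey), by hours post-lesion. The members' medians on the 12 lesioned arrays lie between -1.33 and -1.83, and those of all features stay close to 0.

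Of the members 167 had all 12 lesioned arrays below all 3 unlesioned arrays (92.3%, a share that the rule itself favours, beside 1555 of all 15502 features). The other 14 overlapped. Among these the gene deposited as mhc1ufa, listed by RefSeq as a synonym of tapbp.1, stood at 6.18, 8.10 and 2.33 on the unlesioned arrays, so 1 unlesioned array was as low as the lesioned ones, and only 7 of its 12 lesioned arrays lay below all controls. The gene ck2a1, chosen for mention after its values were seen, was the weakest case, with 4 of 12. Its unlesioned arrays read 7.38, 8.61 and 5.47. The 3 unlesioned arrays differed by at least 1 for 46 members, and replicate 3 was the highest for 25 of them. Those members therefore rest more on single control arrays than the rest do.

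The members began at very different levels. In unlesioned cells 35 lay between 5 and 6, 81 between 6 and 8, 48 between 8 and 10 and 17 at 10 or above. The lowest lesioned mean stayed at or above 4.63, the median of the unlesioned arrays, for 126 members and dropped under it for 55, and 33 were under it at all 4 lesioned times. For those the log2 difference may end in background signal, and a fold is given only for members above that level. The mean change over the 4 times was -2 or lower for 40 members and -3 or lower for 4. The 2 members with the lowest mean change, -4.20 and -3.69, have no gene symbol.

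At the threshold itself the members and their neighbours differ little. The tautomerase gene ddt (smallest change -1.005), tlcd1 (-1.006), dlg1a (-1.009) and the ADP-ribosyltransferase tiparp (-1.013) lay just inside. The serine synthesis enzyme phgdh (-0.995), rlbp1a (-0.991), the insulin receptor adaptor grb10a (-0.987) and the alcohol dehydrogenase adh5 (-0.980) lay just outside. A fall of at least 0.8 would take 310 features and one of at least 1.2 would take 110, so the edge of the group is a convention. Scaling the arrays on their hybridisation controls left 58 of the 181 members.

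**Figure D2:**
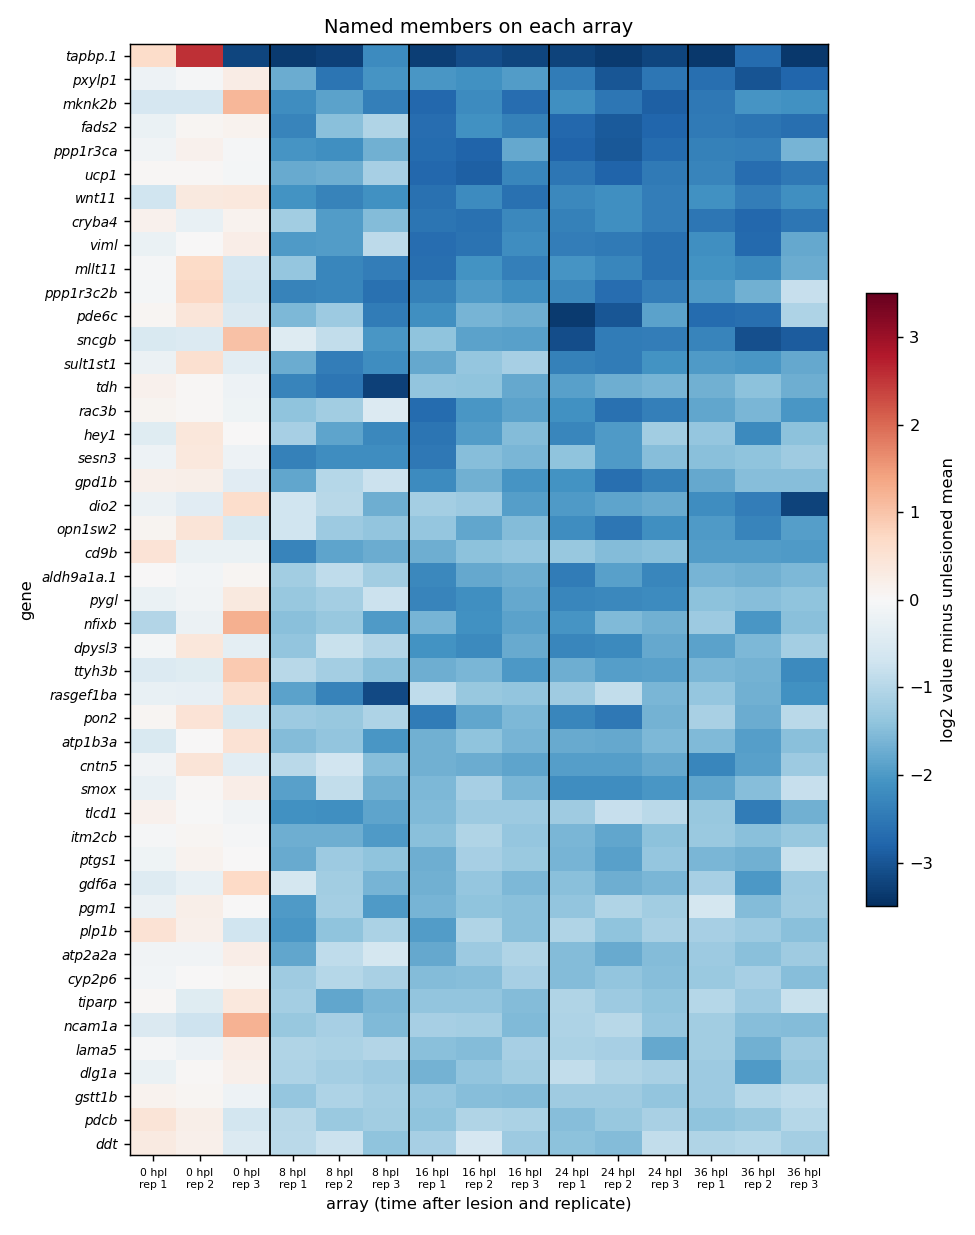
Log2 value minus the unlesioned mean for the 47 named members (rows, ordered by mean change) on each of the 15 arrays (columns, by time and replicate), blue below and red above the unlesioned mean. Nearly all lesioned arrays are blue. The exceptions are in the unlesioned columns, where mhc1ufa (drawn as tapbp.1) is dark blue on replicate 3, and mknk2b, nfixb, ncam1a and sncgb are red there.

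Genes of Notch, Wnt and BMP signalling and of glial transcription are described first, an order that does not rank the roles. The Notch target hey1 encodes a repressor that holds cells in an undifferentiated or glial state. hey1 stood at 8.98, 9.81 and 9.41 on the unlesioned arrays, at 8.25, 7.56 and 7.15 at 8 hpl, at 6.85, 7.45 and 7.87 at 16 hpl, at 7.11, 7.43 and 8.17 at 24 hpl and at 8.06, 7.17 and 7.97 at 36 hpl (log2 values). All lesioned arrays lay at least 0.73 below the lowest unlesioned array, and the 4 lesioned groups overlapped each other. Its mean change over the 4 times was -1.81, a 3.52-fold lower level. The other member on the list of transcription factors, nfixb of the nuclear factor I family that acts in glial maturation, had a mean change of -1.71, but its 3 unlesioned arrays were spread from 5.88 to 8.15.

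The secreted ligand wnt11 (deposited as wnt11r), which guides cell movement and polarity, had the lowest mean change of the signalling members, -2.29. The log2 values of wnt11 were 5.28, 6.31 and 6.34 without a lesion, 3.89, 3.65 and 3.86 at 8 hpl, 3.36, 3.78 and 3.37 at 16 hpl, 3.73, 3.83 and 3.56 at 24 hpl and 3.86, 3.57 and 3.82 at 36 hpl. Its lesioned arrays all lay under 4, below the median of the unlesioned arrays, and did not separate by time. The BMP family ligand gdf6a, known from the patterning of the eye, started near the selection limit. Its 3 controls read 4.73, 4.92 and 5.89, followed by 4.56, 3.97 and 3.54 at 8 hpl, 3.5, 3.82 and 3.62 at 16 hpl, 3.71, 3.48 and 3.58 at 24 hpl and 4.02, 3.16 and 3.91 at 36 hpl. The 8 hpl arrays came closest to the controls, at a distance of 0.16 for the nearest pair.

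Counts of listed genes outside the group, here and for every list below, stand beside the shares in the authors' table, from which they are named. At an adjusted p under 0.05, 26.1%, 35.2%, 32.3% and 37.2% of that table fell at the 4 times. At the same limit 37.3%, 49.5%, 49.4% and 54.0% rose. Counts of members on a list stand beside 181 members among the 3164 features of that table, although the lists count genes and not features. No list by itself is read as a result. A total of 38 genes of the list of transcription factors of glia and neural development are named here, 2 of them the members hey1 and nfixb. Of the 36 others 7 fell and 10 rose at 8 hpl, and 18 fell and 13 rose at 36 hpl. Those with the smallest adjusted p rose, among them ascl1a, the proneural factor of regenerating glia, by 1.68 ± 0.22 (SE) at 8 hpl and 4.67 ± 0.22 at 36 hpl. The factor sox4a rose by 2.61 ± 0.18 at 8 hpl and 2.62 ± 0.18 at 36 hpl. Of the 25 other genes of the BMP, TGF-beta, Wnt and FGF list 6 fell and 7 rose at 8 hpl, and 12 fell and 8 rose at 36 hpl. The growth factor pdgfaa and the Notch ligand jag2b rose at all 4 times, pdgfaa by 2.59 ± 0.26 and jag2b by 0.93 ± 0.19 at 8 hpl.

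Sugar and glycogen metabolism held 4 members of 13 named genes, beside 181 members among the 3164 features of the authors' table. The glycogen phosphorylase pygl frees glucose units from glycogen. Unlesioned arrays gave pygl log2 values of 9.6, 9.71 and 10.15, and lesioned arrays gave 8.5, 8.62 and 9.07 at 8 hpl, 7.52, 7.68 and 8.03 at 16 hpl, 7.55, 7.57 and 7.62 at 24 hpl and 8.39, 8.34 and 8.42 at 36 hpl. Its lesioned arrays were all lower than the controls and formed a trough: the 16 and 24 hpl arrays lay below every array of 8 and 36 hpl. The step from 8 to 16 hpl was -0.99 ± 0.18 (SE, adjusted p = 0.00284) and the step from 24 to 36 hpl was 0.80 ± 0.18 (adjusted p = 0.0156, up to 0.0628 without 24 hpl replicate 1 or 2). Another 2 probe sets of pygl, which the rule did not take, were lower at the same times, at -0.84, -1.83, -2.16 and -1.19 for the brighter one.

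The gene ppp1r3ca encodes a subunit that brings protein phosphatase 1 to glycogen and favours its storage. ppp1r3ca stood at 6.75, 7.02 and 6.81 on the unlesioned arrays, at 4.79, 4.7 and 5.19 at 8 hpl, at 4.17, 4.06 and 5.06 at 16 hpl, at 4.07, 3.89 and 4.16 at 24 hpl and at 4.49, 4.48 and 5.24 at 36 hpl (log2 values). A related subunit, ppp1r3c2b, behaved alike in size. The log2 values of ppp1r3c2b were 5.95, 6.76 and 5.39 without a lesion, 3.69, 3.76 and 3.42 at 8 hpl, 3.67, 4.06 and 3.88 at 16 hpl, 3.78, 3.37 and 3.61 at 24 hpl and 4.06, 4.36 and 5.22 at 36 hpl. Its 36 hpl arrays all lay above those of 8 and 24 hpl, with a difference of 0.92 ± 0.30 from 8 hpl (adjusted p = 0.0419) that was no longer called on leaving out any of 10 single arrays (highest adjusted p 0.199). The glycerol phosphate dehydrogenase gpd1b, which links glycolysis to lipid synthesis and to mitochondrial electron transport, began at a high signal. Its 3 controls read 12, 12.01 and 11.42, followed by 9.98, 10.82 and 11.07 at 8 hpl, 9.6, 10.14 and 9.74 at 16 hpl, 9.73, 9.18 and 9.44 at 24 hpl and 10.02, 10.31 and 10.33 at 36 hpl. It stayed far above background throughout, with a mean change of -1.78 or 3.44-fold lower. The phosphoglucomutase pgm1, which interconverts the glucose phosphates on the way into and out of glycogen, was lowest at 8 hpl, with a change of -1.71 there and -1.13 at 36 hpl. Another probe set of pgm1, outside the group, had changes of -1.55 at 8 hpl and -0.68 at 36 hpl.

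Of the other 9 named sugar genes 4 fell and none rose at 8 hpl, and 7 fell and 2 rose at 36 hpl, with median changes of -0.63 and -0.90. The count of 0 rises was the same at an unadjusted p under 0.05, and array weights gave 1. The muscle-type glycogen phosphorylase pygmb fell at all 4 times, with a change of -2.12 ± 0.20 at 24 hpl, while the glycolytic mutase pgam1a rose from 16 hpl on, by 1.33 ± 0.14.

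The fatty acid desaturase fads2 makes long polyunsaturated fatty acids, of which the retina holds much. Unlesioned arrays gave fads2 log2 values of 9.55, 9.85 and 9.9, and lesioned arrays gave 7.45, 8.31 and 8.73 at 8 hpl, 7.1, 7.65 and 7.41 at 16 hpl, 7.03, 6.83 and 7.0 at 24 hpl and 7.3, 7.21 and 7.12 at 36 hpl. All lesioned arrays lay below the controls, and 2 of the 3 arrays of 8 hpl lay above all later ones. The difference of 36 from 8 hpl was -0.95 ± 0.24 (adjusted p = 0.0099), and the mean level over the 4 times was 5.05-fold lower. Of the other 14 named lipid genes 3 fell and 5 rose at 8 hpl and 8 fell and 4 rose at 36 hpl. The acyl-CoA synthetase acsl1a fell at all 4 times, with a change of -1.01 ± 0.15 at 8 hpl, and the elongase elovl1b rose by 1.45 ± 0.23.

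Threonine dehydrogenase, tdh, opens the route from threonine to glycine and acetyl-CoA and was the member with the clearest low point at 8 hpl. tdh stood at 10.28, 10.15 and 9.94 on the unlesioned arrays, at 7.82, 7.6 and 6.86 at 8 hpl, at 8.75, 8.71 and 8.32 at 16 hpl, at 8.22, 8.41 and 8.48 at 24 hpl and at 8.45, 8.68 and 8.4 at 36 hpl (log2 values). The 8 hpl arrays lay below every later array, and the later times overlapped. The step from 8 to 16 hpl was 1.17 ± 0.21 (adjusted p = 0.00266) and the difference of 36 from 8 hpl was 1.08 ± 0.21 (adjusted p = 0.00133). The mitochondrial carrier ucp1 (deposited as ucp4), of the uncoupling protein family, went the other way. The log2 values of ucp1 were 7.67, 7.67 and 7.55 without a lesion, 5.87, 5.92 and 6.46 at 8 hpl, 4.87, 4.76 and 5.36 at 16 hpl, 5.09, 4.83 and 5.16 at 24 hpl and 5.33, 4.96 and 5.13 at 36 hpl. Its 8 hpl arrays lay above all later ones, with a step of -1.09 ± 0.19 to 16 hpl (adjusted p = 0.00197). The iodothyronine deiodinase dio2, which makes the active thyroid hormone, had its lowest values at 36 hpl. Its 3 controls read 7.44, 7.26 and 8.26, followed by 6.94, 6.68 and 5.95 at 8 hpl, 6.46, 6.37 and 5.71 at 16 hpl, 5.68, 5.81 and 5.89 at 24 hpl and 5.48, 5.23 and 4.4 at 36 hpl. The 36 hpl arrays lay below all others, at -1.49 ± 0.32 against 8 hpl (adjusted p = 0.00306).

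Enzymes of detoxification and redox balance gave 6 members of 40 named genes. They were the sulfotransferase sult1st1, the aminoaldehyde dehydrogenase aldh9a1a.1, the paraoxonase pon2, the spermine oxidase smox, the cytochrome P450 cyp2p6 and the glutathione transferase gstt1b. Their mean changes ran from -1.94 for sult1st1 to -1.25 for gstt1b. Of these, aldh9a1a.1 had an SD of 0.09 among its unlesioned arrays. Unlesioned arrays gave aldh9a1a.1 log2 values of 9.46, 9.36 and 9.54, and lesioned arrays gave 8.23, 8.56 and 8.25 at 8 hpl, 7.21, 7.66 and 7.75 at 16 hpl, 7.01, 7.57 and 7.18 at 24 hpl and 7.84, 7.78 and 7.88 at 36 hpl. Its 8 hpl arrays lay between the controls and all later arrays, with a step of -0.81 ± 0.17 to 16 hpl (adjusted p = 0.00754). The prostaglandin synthase ptgs1 (cyclooxygenase 1), on the list of vesicle traffic and membrane signalling, had a mean change of -1.47, and its lesioned groups overlapped. Of the other 34 redox genes 10 fell and 9 rose at 8 hpl and 21 fell and 9 rose at 36 hpl. The thioredoxin txnb rose by 1.28 ± 0.18 at 8 hpl and 4.01 ± 0.18 at 36 hpl.

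The kinase mknk2b, which phosphorylates the cap-binding translation factor eIF4E, had one of the lowest mean changes among members with a usable name. mknk2b stood at 8.47, 8.49 and 10.24 on the unlesioned arrays, at 6.9, 7.2 and 6.67 at 8 hpl, at 6.33, 6.88 and 6.41 at 16 hpl, at 6.93, 6.55 and 6.21 at 24 hpl and at 6.56, 7.01 and 6.96 at 36 hpl (log2 values). The control of replicate 3 stood well above the other two, and the lesioned arrays all lay below the lowest control, by at least 1.27. Its mean change was -2.35, or 5.10-fold lower. Another member probe set of the same gene had a mean change of -1.83, and one more, which began below the level limit, had changes from -1.16 to -1.24. Sestrin 3, sesn3, restrains the growth kinase TOR in mammals. The log2 values of sesn3 were 8.12, 8.69 and 8.13 without a lesion, 5.95, 6.13 and 6.13 at 8 hpl, 5.8, 6.81 and 6.7 at 16 hpl, 6.89, 6.33 and 6.83 at 24 hpl and 6.84, 6.91 and 7.07 at 36 hpl. Its mean was lowest at 8 hpl, and the 36 hpl arrays were all higher than those of 8 hpl, by 0.88 ± 0.24 (adjusted p = 0.0146).

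Of the small GTPases and their partners, the naming rule took rasgef1ba for a called step up and rac3b for a called step down. Their opposite courses thus come from that choice, and rasgrp4 and arl4d, members annotated alike, were not taken by it. The guanine nucleotide exchange factor rasgef1ba was lowest at 8 hpl. Its 3 controls read 9.38, 9.35 and 10.22, followed by 7.77, 7.3 and 6.48 at 8 hpl, 8.77, 8.32 and 8.26 at 16 hpl, 8.41, 8.8 and 8.04 at 24 hpl and 8.31, 7.98 and 7.53 at 36 hpl. Every 16 hpl array lay above every 8 hpl array, a step of 1.27 ± 0.32 (adjusted p = 0.0212, up to 0.0930 without 8 hpl replicate 3 or 16 hpl replicate 1) and the highest of any member from 8 to 16 hpl. The small GTPase rac3b, which acts on the actin cytoskeleton, was nearer to the controls at 8 hpl than later. Unlesioned arrays gave rac3b log2 values of 9.75, 9.68 and 9.51, and lesioned arrays gave 8.23, 8.43 and 9.17 at 8 hpl, 6.97, 7.61 and 7.77 at 16 hpl, 7.54, 7.04 and 7.26 at 24 hpl and 7.84, 8.05 and 7.61 at 36 hpl. One 8 hpl array lay only 0.34 below the lowest control, and the step to 16 hpl was -1.16 ± 0.24 (adjusted p = 0.00698). The collapsin response mediator dpysl3, a cytoskeletal regulator of neurite growth, had the same course, with a step of -0.97 ± 0.23 (adjusted p = 0.0148, up to 0.0647 without 8 hpl replicate 2 or 16 hpl replicate 1 or 2).

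**Figure D3:**
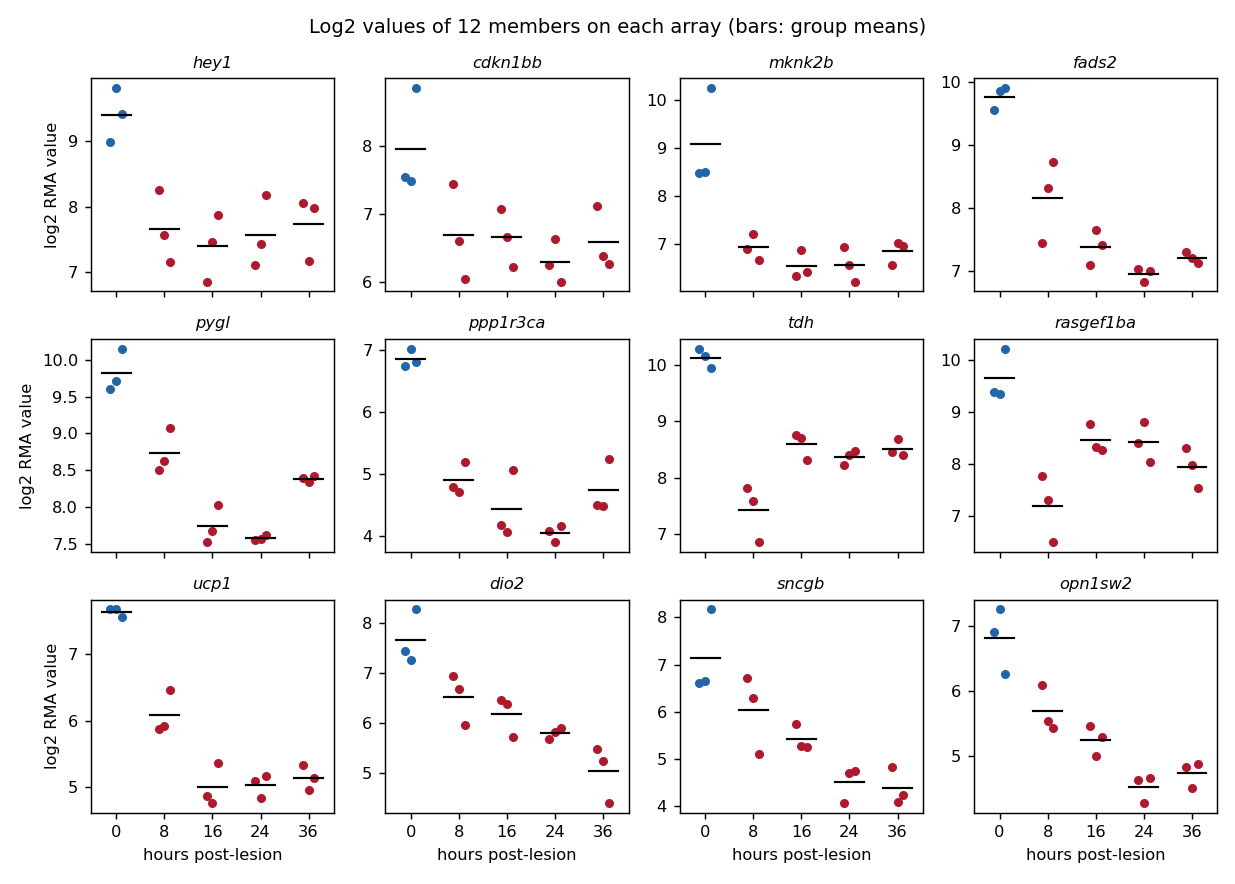
Log2 values of 12 members on each array (points, blue unlesioned and red lesioned) with group means (bars), by hours post-lesion. The genes tdh and rasgef1ba are lowest at 8 hpl, ucp1 and pygl are lower at 16 and 24 hpl than at 8 hpl, and dio2 and sncgb are lowest at 36 hpl or close to it. The gene cdkn1bb is shown from among members outside the naming rule.

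Pumps, adhesion molecules and membrane proteins are described next. The ion channel and pump list gave 3 of 16 named genes: the sodium pump subunit atp1b3a (mean change -1.64), the calcium pump atp2a2a (-1.35) and ttyh3b of the tweety family of membrane proteins (-1.66). For atp1b3a and ttyh3b a brighter probe set outside the group was lower as well, at -0.82 to -1.55 and at -0.75 to -1.80. The paralogue atp2a2b of the calcium pump rose at all 4 times, by 1.85 ± 0.24 at 8 hpl. Of the 13 other genes of this list 2 fell and 6 rose at 8 hpl.

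The matrix and adhesion list gave 3 of 22, the contactin cntn5 (-1.62), the neural cell adhesion molecule ncam1a (-1.30) and the laminin chain lama5 (-1.29). cntn5 stood at 7.84, 8.41 and 7.59 on the unlesioned arrays, at 7.02, 7.27 and 6.45 at 8 hpl, at 6.27, 6.2 and 6.11 at 16 hpl, at 6.01, 6.03 and 6.15 at 24 hpl and at 5.66, 6.06 and 6.67 at 36 hpl (log2 values). The lesioned arrays lay below all controls and the 36 hpl arrays mostly below those of 8 hpl, by -0.78 ± 0.25 (adjusted p = 0.0385, up to 0.181 without 8 hpl replicate 1 or 2 or 36 hpl replicate 1 or 2). Of the 18 others 6 fell and 3 rose at 8 hpl and 10 fell and 5 rose at 36 hpl. The phosphatase pxylp1, which acts on the linker of matrix sugar chains, had the lowest mean change of all members with a usable name and separated arrays. The log2 values of pxylp1 were 7.64, 7.78 and 8.08 without a lesion, 6.08, 5.27 and 5.76 at 8 hpl, 5.78, 5.71 and 5.87 at 16 hpl, 5.38, 4.84 and 5.29 at 24 hpl and 5.2, 4.81 and 5.06 at 36 hpl. The distance between the lowest control and the highest lesioned array was 1.56, and the level was 5.32-fold lower on average.

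The transmembrane protein itm2cb had tight replicates. Its 3 controls read 10.12, 10.25 and 10.14, followed by 8.45, 8.45 and 8.18 at 8 hpl, 8.72, 9.13 and 8.81 at 16 hpl, 8.58, 8.36 and 8.73 at 24 hpl and 8.86, 8.7 and 8.84 at 36 hpl. Its 8 hpl arrays were the lowest but for overlap with 24 hpl, with a step of 0.53 ± 0.14 to 16 hpl (adjusted p = 0.0307, up to 0.148 without 8 hpl replicate 3 or 16 hpl replicate 2 or 3). The membrane protein tlcd1, known in mammals for an effect on membrane lipid composition, was also lowest early. Unlesioned arrays gave tlcd1 log2 values of 7.33, 7.16 and 7.06, and lesioned arrays gave 5.05, 5.04 and 5.34 at 8 hpl, 5.64, 5.91 and 5.9 at 16 hpl, 5.93, 6.36 and 6.23 at 24 hpl and 5.86, 4.74 and 5.49 at 36 hpl. It was called lower at 36 than at 24 hpl (-0.81 ± 0.22, adjusted p = 0.0435) and was the only member called lower in that step, but 11 of 15 omissions of a single array ended the call (highest adjusted p 0.190). The vimentin-like filament gene viml had a mean change of -2.21 and mllt11, named after a fusion partner in human leukaemia, one of -2.19.

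Some members mark other cell types and are given with those markers. A marker is named only where the authors' table holds it, so every sum is taken over genes that reached a 2-fold difference at some time on these arrays. The sums also include members and genes left out by name. The cone phosphodiesterase pde6c and the blue cone opsin opn1sw2 were among the members, and the cone transducin gnat2 met the values but was left out by name. opn1sw2 stood at 6.91, 7.26 and 6.27 on the unlesioned arrays, at 6.1, 5.54 and 5.43 at 8 hpl, at 5.46, 4.99 and 5.29 at 16 hpl, at 4.63, 4.27 and 4.66 at 24 hpl and at 4.83, 4.5 and 4.88 at 36 hpl (log2 values). The log2 values of pde6c were 8.47, 8.83 and 7.89 without a lesion, 6.82, 7.14 and 5.96 at 8 hpl, 6.25, 6.77 and 6.7 at 16 hpl, 5.04, 5.41 and 6.54 at 24 hpl and 5.7, 5.77 and 7.33 at 36 hpl. The opsin was lower at 36 than at 8 hpl by -0.95 ± 0.24 (adjusted p = 0.00867), while the difference for pde6c was -0.37 ± 0.44 and was not called (adjusted p = 0.639). The summed level of 9 named cone markers of 31 listed was 9.79 to 10.47 in the unlesioned group and 8.77 to 9.36, 8.56 to 8.85, 8.01 to 8.59 and 8.11 to 8.97 at the 4 lesioned times (log2 of the sum). Of its 6 genes that are neither members nor left out by name, 1 fell at 8 hpl and 5 fell at 24 hpl. None rose by limma's test, at an unadjusted p under 0.05 or with array weights.

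The phosducin pdcb, on the list of rod markers, had a mean change of -1.23. Of the 7 other named rod genes 1 was called higher and 1 lower at 8 hpl, with a median change of 0.56. By limma's test the rod transducin subunit gngt1 rose then, from a mean of 8.38 to 9.81 (adjusted p = 0.0208), and was lower than the controls at 36 hpl, at 6.64 (adjusted p = 0.00329). The transducin subunit gnat1 read 8.06 unlesioned, 8.82 at 8 hpl (adjusted p = 0.0792) and 6.79 at 36 hpl (adjusted p = 0.0038). For rho the means were 9.79, 10.35 (adjusted p = 0.156) and 8.79 (adjusted p = 0.00963) in the same groups. The paralogue pdca fell at all 4 times and pde6a from 16 hpl on, guca1b was called lower at 36 hpl alone, and the rod transcription factor nr2e3 rose from 16 hpl on. The myelin and astrocyte list gave the tetraspanin cd9b (-1.72) and the proteolipid plp1b (-1.38). Its sum over 5 genes of 20 was 9.15 to 9.92 unlesioned and 8.00 to 8.22 at 36 hpl, and its genes sox10, cldnk and mbp were among the genes that fell at 36 hpl. The crystallin cryba4 was the lens member. Its 3 controls read 5.84, 5.44 and 5.82, followed by 4.48, 3.74 and 4.17 at 8 hpl, 3.13, 3.09 and 3.45 at 16 hpl, 3.34, 3.55 and 3.29 at 24 hpl and 3.18, 2.95 and 3.16 at 36 hpl. It stood near the selection limit and was lower at 36 than at 8 hpl by -1.03 ± 0.18 (adjusted p = 0.000641). The lens and cornea sum over 4 named genes of 33 was 7.32 to 8.18 unlesioned and 9.86 to 10.22 at 36 hpl. Its keratins krt8 and krt18a.1 rose, but its other crystallin, cryaba, fell at all 4 times, by -1.51 ± 0.15 at 36 hpl. The higher sum thus follows the keratins and not the crystallins.

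None of 41 listed microglia and leukocyte genes is named here, so no level can be given for those cells. The Müller glia sum itself was 14.10 to 14.24 unlesioned and 12.81 to 13.10 at 36 hpl. As a sum of linear values it follows its brightest genes. Of its 8 genes that did not meet the rule's values 5 fell and 2 rose at 36 hpl. The risers were glulb, from a mean of 6.76 to 7.60, and sox2, from 8.98 to 9.35. The cone, myelin and Müller glia sums were thus lower after the lesion. The falls of the cone and myelin sums were partly set by the rule. The cone sum holds the members pde6c and opn1sw2 and also gnat2, and the myelin sum holds the members cd9b and plp1b. The Müller glia sum holds no member, but s100b and cyp26a1, which met the values and were left out by name, add to its fall. The lens and cornea sum was higher, with its keratins higher and its crystallins lower. The sum of 7 other retinal neuron genes was 9.98 to 10.41 unlesioned, 10.23 to 11.31 at 8 hpl and 8.74 to 9.64 at 36 hpl. That of 2 pigment cell genes was 6.8 to 7.32 unlesioned and 7.84 to 8.36 at 36 hpl. These 2 genes went opposite ways: the mean of tspan36 went from 4.87 to 7.87 at 36 hpl and that of rpe65a from 6.57 to 4.92. The higher pigment cell sum thus follows tspan36 alone. The part of these cells in the members' levels was not tested.

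**Figure D4:**
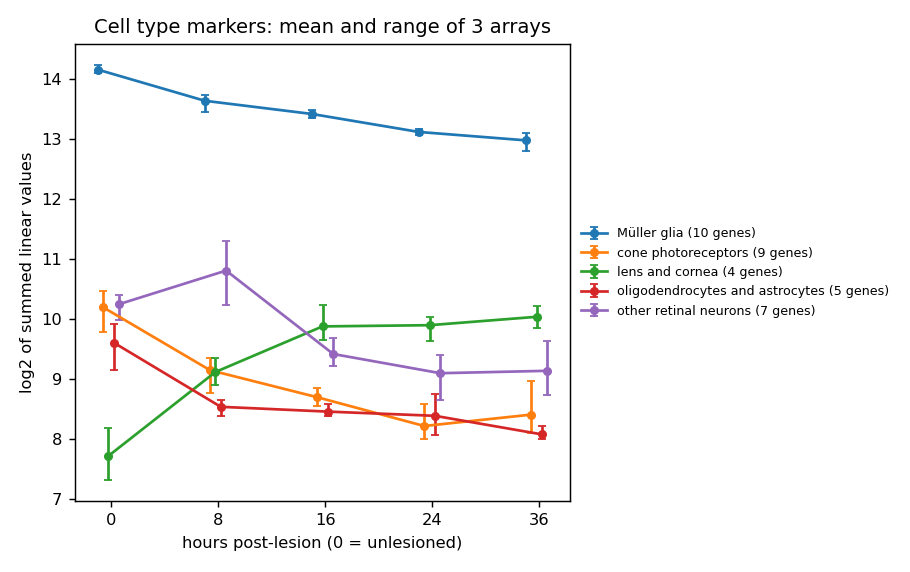
Log2 of the summed linear values of the named genes of 5 marker lists, by hours post-lesion. Points are means and bars the lowest and highest of 3 arrays. The cone sum is lower at all lesioned times than in unlesioned cells, and it includes members chosen for their fall. The lens and cornea sum is higher at 36 hpl, through its keratins, while its crystallins are lower.

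The neuronal protein gene sncgb, a synuclein, was not on a list but had one of the steepest later declines. Unlesioned arrays gave sncgb log2 values of 6.62, 6.66 and 8.17, and lesioned arrays gave 6.71, 6.29 and 5.1 at 8 hpl, 5.73, 5.28 and 5.26 at 16 hpl, 4.06, 4.7 and 4.74 at 24 hpl and 4.83, 4.08 and 4.23 at 36 hpl. An 8 hpl array overlapped the controls, and the difference of 36 from 8 hpl was -1.65 ± 0.41 (adjusted p = 0.00888). A further 2 probe sets of sncgb had the same order, with changes from -0.85 at 8 hpl to -2.77 at 36 hpl for the brighter one. Over the 12 genes with usable names, 14 further probe sets that the rule did not take were all lower at all 4 times, by -0.35 at the least and -2.77 at the most. They were sought only in the authors' table, whose features all reached a 2-fold difference at some time on these arrays. Unchanged probe sets of the same genes could therefore not appear.

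Whether the members stayed level after 8 hpl was tested among the lesioned times alone. The rule did not compare these times with each other, but it filtered on the same lesioned means. It keeps each member at least 1 below the controls at every time and so limits how far a step can go up. A member near that limit at 8 hpl could hardly rise and remain in the group. All features also include dim ones with less room to fall than the members. The balance of calls up and down is thus not independent of the rule, and no excess of members is read from the shares below. The F test over 8, 16, 24 and 36 hpl called 38 members (21.0%) beside 21.5% of all features, a share near the background from which nothing is read. From 8 to 16 hpl 20 members stepped down (11%, all features 3.12%) and 3 stepped up (1.66%, all features 5.48%). From 16 to 24 hpl no member was called in either direction, where limma called 0.290% of all features higher and 0.271% lower. At an unadjusted p under 0.05 that step had 7 members higher and 21 lower, and array weights gave 1 and 6 adjusted calls. The share of all features was not counted in those settings. From 24 to 36 hpl 2 members stepped up (1.1%, all features 3.11%) and 1 stepped down (0.552%, all features 2.03%). Over the whole lesioned course, 36 against 8 hpl, 27 members were lower (14.9%, all features 8.84%) and 4 were higher (2.21%, all features 12%).

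**Figure D5:**
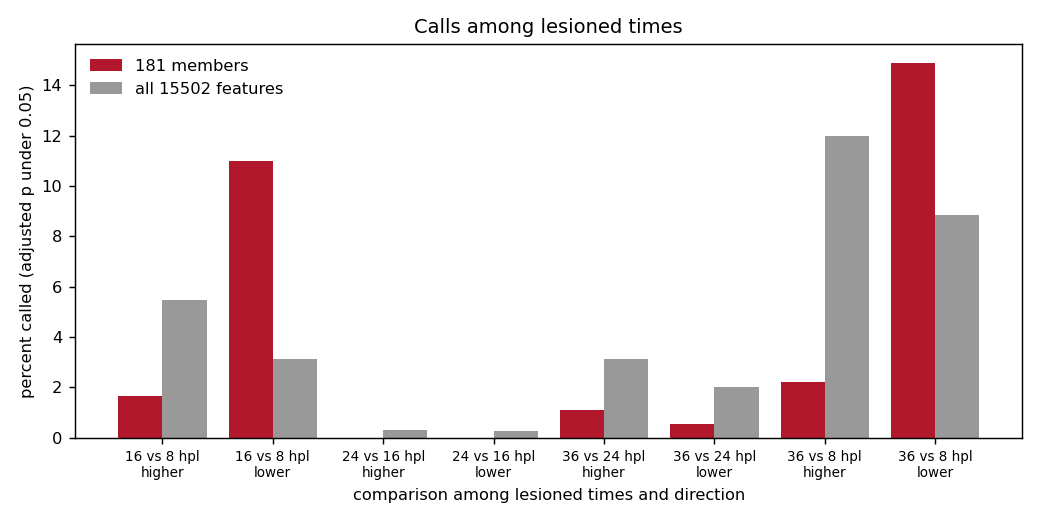
Percent of the 181 members (red) and of all 15502 features (grey) called at an adjusted p under 0.05 in each comparison among lesioned times, by direction. Downward calls from 8 to 16 hpl reach 11% of members and 3.12% of features, and neither direction is called for any member from 16 to 24 hpl. The members' shares are not independent of the rule.

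For 156 members no consecutive step was called, for 21 a step down, for 5 a step up and for 1 of these, pygl, both. Such patterns were not counted over all features, so the 156 are not read as a sign that members stayed level. The lowest mean was at 8 hpl for 25 members, at 16 hpl for 28, at 24 hpl for 89 and at 36 hpl for 39. The 4 changes of a member lay within 0.53 of each other at the median, within 0.5 for 77 members and at least 1 apart for 38. Without 16 hpl replicate 1 the calls down from 8 to 16 hpl numbered 9 and without 8 hpl replicate 2 they numbered 12. Scaling the arrays on their hybridisation controls gave 12 for that step, 13 for the lower and 8 for the higher calls of 36 against 8 hpl, and 14 higher calls from 24 to 36 hpl. Shares of all features were not counted for these alternatives, so no excess of members is read from them.

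The same fit covered the 190 genes of the 11 role lists that are named here and are not members. At 8 hpl 51 fell (26.8%) and 53 rose, at 16 hpl 90 fell (47.4%) and 60 rose, at 24 hpl 94 fell (49.5%) and 55 rose, and at 36 hpl 104 fell (54.7%) and 59 rose. Of all features in the authors' table, 26.1%, 35.2%, 32.3% and 37.2% fell at those times and 37.3%, 49.5%, 49.4% and 54.0% rose, beside 27.9%, 31.6%, 28.9% and 31.1% of the listed genes that rose. That table holds only features that reached a 2-fold difference at some time on these same arrays, and the lists were written with earlier results of these data known, so these shares are no independent evidence of a direction. With hybridisation-control scaling the genes that fell numbered 16, 40, 60 and 48. A pair of lists held no member: of 10 clock genes 5 fell and 2 rose at 8 hpl, and of 11 genes of amino acid and GABA metabolism 3 fell and 6 rose.

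By the authors' deposited annotation, 19 of the 48 members with a cellular component term carry the term membrane (39.6%), beside 246 of 1125 in the table (21.9%). Of 74 members with a molecular function term 7 are annotated with protein serine/threonine kinase activity (9.46%, against 2.66% in the table), among them both probe sets of mknk2b. The 7 also include adnp, by that annotation alone, and ck2a1, whose lesioned arrays overlapped the controls. Cell adhesion is given for 4 of 63 (6.35%, against 1.59%) and small GTPase signalling for 4 of 63 (6.35%, against 2.17%), the latter rasgef1ba, rac3b, rasgrp4 and arl4d. Nucleus is given for 8 of 48 (16.7%, against 26.8%). These shares are descriptions and were not tested.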

How the data were processed

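Müller glia sorted at 5 times, 3 biological replicates each, were measured on 15 arrays. The deposited log2 values were made by the authors with RMA, per the submitters' processing notes, whose implementation is not given in the sources used here. The authors' deposited table gives a signed fold change score against 0 hpl (negative where lower), p-values of an unstated test and gene symbols for 3164 features. For the members, these scores on the log2 scale differed from the differences between group means by no more than 3.49e-10. Its p-values were not used. Symbols were updated through RefSeq synonyms: of the members with 1 symbol 42 were current, 50 were updated and 40 were kept as given.

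All 15502 non-control features were fitted together in R 4.3.3 by lmFit and eBayes of limma 3.58.1 (1 coefficient per time, two-sided, Benjamini-Hochberg over all features, called at an adjusted p under 0.05), after the same code was tested on simulated data. Tables and figures used pandas and matplotlib. Errors are the standard errors of the fit, whose precision is set by 3 arrays per time. RMA values carry no detection calls.

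The members and the gene lists were chosen with earlier results of these data known. Named members were the 12 of lowest mean change, the 4 nearest the threshold on either side, up to 4 called steps per direction and comparison, and members on a list, leaving out clone and locus names. Of listed genes outside the group up to 3 per list were named, those of smallest adjusted p. A listed gene is read from its brightest probe set. Other genes named were chosen after their values were seen. Promoter motifs were not analysed here, and the summed level of rod markers is not reported here. Alternatives were repeated quantile normalisation, median centring, scaling on hybridisation controls, leaving out the dimmest 25% of features, trend with robust settings, array weights, a fit of the compared groups only, a block for the replicate number, an adjusted p under 0.01, other limits of the rule, and leaving out each array.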

Additional observations from a re-analysis of the deposited data

How the results depend on the processing

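No call of a named step changed sign under any alternative. The medians against 0 hpl kept their sign too, but the rule made this likely in advance, as it took only features that were lower. Of 25 called steps of named members 10 stayed called under all alternatives, among them both of tdh, ucp1 and cryba4. Mean hybridisation-control signals were 11.693 to 11.874 on the unlesioned arrays and 11.074 to 11.671 on the lesioned ones. Every unlesioned array thus lay above every lesioned array, along the contrast that chose the members, and the cause was not tested. The scaling on hybridisation controls, which shifts every feature of an array alike, left 58 members, all of them among the 181. It gave median changes of -1.05, -1.13, -1.42 and -1.05 at the 4 times. It gave 12 members lower at 16 than at 8 hpl, 14 higher and 0 lower at 36 than at 24 hpl, and 8 higher and 13 lower at 36 than at 8 hpl. Listed genes outside the group, for which the alternatives were added after seeing the data, then fell in numbers of 16, 40, 60 and 48. Repeated quantile normalisation gave medians of -1.73 at 16 hpl and -1.88 at 24 hpl and 240 members, median centring gave -1.70 at 24 hpl and 132 members, and limits of 0.8 and 1.2 took 310 and 110.

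Array weights gave 5 members higher and 32 lower at 16 than at 8 hpl, 1 and 6 at 24 than at 16 hpl, 8 and 2 at 36 than at 24 hpl, and 61 in the F test. The compared groups alone gave 13 lower at 16 than at 8 hpl, 4 higher at 36 than at 24 hpl and 2 higher at 36 than at 8 hpl. At an adjusted p under 0.01 there were 1 higher and 9 lower at 16 than at 8 hpl, 0 and 0 at 36 than at 24 hpl, 1 and 16 at 36 than at 8 hpl, 22 in the F test, and 29 listed genes that fell at 8 hpl. The share of all features called was not counted for any alternative, so no excess of members is read from the counts in this section.

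Leaving out each array in turn gave 1 to 4 members higher and 9 to 24 lower at 16 than at 8 hpl, 0 to 4 higher and 0 to 2 lower at 36 than at 24 hpl, and a median at 24 hpl from -1.86 to -1.70. The rule then found 170 to 217 members, and without 0 hpl replicate 3 it shared 145 of its 183 with the 181. Same-numbered arrays showed no common deviation (median correlation of their deviations -0.0375 over 30 pairs, from -0.34 to 0.402, 9 of them over 0.1). No pairing by replicate number was seen, but this does not show how the replicates were collected or processed. With replicate as a block 0 members were lower at 36 than at 24 hpl and 2 higher at 36 than at 8 hpl. The cause of these differences was not tested. Signal near background limits the 33 members whose lesioned means all lay under 4.63.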

Other observations

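Several members outside the naming rule act in insulin, PI3-kinase and TOR signalling, the pathway that ties nutrient supply to growth. They were picked after their values were seen, and the list of this pathway was written then, so its counts have no test. Of 16 genes of that list named here 8 are members. These 8 include mknk2b and sesn3, which the naming rule took, and cdkn1bb and ccng2, which are counted again in the cell cycle list below. The insulin receptor substrate irs2a had changes of -1.73, -1.50, -1.53 and -1.51 at the 4 times, and the PI3-kinase subunit pik3r3a -1.58, -1.49, -1.33 and -1.32. Unlesioned arrays gave deptor log2 values of 7.51, 7.71 and 7.0, and lesioned arrays gave 6.11, 6.26 and 5.77 at 8 hpl, 5.55, 6.22 and 6.21 at 16 hpl, 5.54, 5.27 and 5.98 at 24 hpl and 6.19, 6.45 and 6.38 at 36 hpl. This inhibitor of TOR was lower on all lesioned arrays, with its lowest mean at 24 hpl. The kinase ulk1, which starts autophagy and is held back by TOR, had a mean change of -1.40, or 2.64-fold lower. The other 8 genes of the list had a median change of 0.24 at 8 hpl and 0.55 at 36 hpl, and 4 of them were below the control mean at 8 hpl and 3 at 36 hpl. Among these the transcription factor foxo3b had changes of -0.87 at 8 hpl and -1.46 at 36 hpl, and the translation repressor eif4ebp1 0.62 at both.

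Of 15 named genes of a list on cell cycle exit and G1 control, also written after the values were seen, 2 are members, cdkn1bb and ccng2. The 13 others had median changes of 0.06, 0.56, 0.89 and 1.39 at the 4 times, and 6 of them were below the control mean at 8 hpl and 4 at 36 hpl. The cyclin-dependent kinase inhibitor cdkn1bb (p27 family) holds cells in G1. cdkn1bb stood at 7.54, 7.48 and 8.84 on the unlesioned arrays, at 7.44, 6.6 and 6.05 at 8 hpl, at 7.08, 6.67 and 6.23 at 16 hpl, at 6.26, 6.63 and 6.01 at 24 hpl and at 7.12, 6.38 and 6.27 at 36 hpl (log2 values). One array at 8 hpl came within 0.03 of the lowest control. A brighter probe set of the same gene, at 11.22 in unlesioned cells, was lower by less, with changes of -0.82 at 8 hpl and -1.21 at 36 hpl. The cyclin ccng2, known in mammals from arrested cells, had changes of -1.06, -1.65, -1.01 and -1.32. The antiproliferative genes tob1a and tob1b, which are no members, had changes of -0.87 and -0.72 at 8 hpl and -1.37 and -1.27 at 36 hpl, and the cyclin ccnd1 of 0.41 and 2.26. Other brakes on the cycle were higher at 36 hpl, with changes of 1.85 for btg3, 1.39 for rb1 and 2.63 for gadd45ga. Among secreted signals and receptors, the chemokine cxcl12a (mean change -1.42), the proenkephalin penkb (-1.63) and the hedgehog co-receptor boc (-1.36) were members. A further probe set of boc, at 10.13 in unlesioned cells, was lower by less, with changes of -0.35, -0.74, -1.10 and -0.98. A further probe set of cxcl12a had changes of -0.70 at 8 hpl and -1.16 at 36 hpl.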
